A study of Mus musculus with 4 samples.

Results

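Dual-specificity MAP kinase phosphatases are enzymes that switch MAP kinases off by removing the phosphates from the threonine and the tyrosine of the activation loop. The 8 genes described here are Dusp1, Dusp2, Dusp4, Dusp5, Dusp6, Dusp7, Dusp10 and Dusp16, out of 30731 genes listed in the tables of all 4 libraries, and each of the 8 was listed in every table. They were named by symbol and selected on their measured levels, the CPM values of these same 4 libraries. Their levels are therefore a description, and no test was run on them.

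RNA-seq was made from mouse innate lymphoid cells of 3 kinds, which respond without a rearranged antigen receptor, in a study that mapped genome contacts in the same kinds of cell. MNK-3, with 2 libraries, is a cell line labelled ILC3-like and wild type, derived from thymocytes of NIH-Swiss fetuses at day 15 and cultured in IL-7 and IL-15 at 10 ng/ml. ILC2, with 1 library, came from the bone marrow of pooled wild-type C57BL/6 mice of 8 to 12 weeks and had been grown up with IL-25, IL-33, IL-7 and IL-2 at 10 ng/ml. NK cells, with 1 library, came from the spleen of pooled wild-type C57BL/6 mice of 8 to 12 weeks, and no culture is given for them. Between MNK-3 and either other group, cell type, tissue, strain, culture and counting table differ together and cannot be told apart. ILC2 and NK share strain, age range and a table of 53465 genes. Between them cell type, tissue and culture differ together and cannot be told apart. In bulk RNA, fewer cells of a type and less RNA per cell cannot be told apart either. The labels do not say whether the MNK-3 libraries came from separate cultures.

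The family divides by place and by substrate. Dusp1, Dusp2, Dusp4 and Dusp5 encode nuclear enzymes whose genes are induced within minutes to hours of MAP kinase activation. Dusp6 and Dusp7 encode cytoplasmic enzymes that act on ERK, and Dusp10 and Dusp16 encode enzymes that act mainly on JNK and p38. Because several of these genes are switched on by the pathway that they then restrain, their transcripts are often read as a trace of recent signalling. In innate lymphocytes, ERK and p38 act downstream of activating and cytokine receptors, and IL-33 signals partly through p38 in ILC2.

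The libraries held 25617762 and 15177345 gene reads in MNK-3 replicates 1 and 2, 9298162 in ILC2 and 4637812 in NK, over the shared genes. Levels are given as CPM, reads divided by these totals and scaled to a common library size, so that 1 read was worth between 0.0390 and 0.216 CPM, and each 95% interval (exact Poisson for a level, exact binomial for a ratio) covers counting error only. MNK-3 replicate 1 stood apart from the others. Entries that name no gene took 76.5% of its reads, against 25.9% to 49.3% in the other 3 libraries, and 95.6% of the shared genes had a read in it, against 69.6% to 76.0%. The 17913 genes under 1 CPM in MNK-3 replicate 2 had a median of 1.72 CPM and a 95th percentile of 13.0 CPM in replicate 1. Each list of 10 markers had its highest sum in its own group. The ILC3 list reached 3511 and 5066 CPM in the MNK-3 replicates, beside 926 CPM in ILC2. The ILC2 list reached 7912 CPM in ILC2, and the NK list 9111 CPM in NK. Markers at 10 CPM in their own group numbered 8 for ILC3 in each replicate, 8 for ILC2 and 10 for NK. Single markers could go the other way. Il17rb and Hpgds had 3.98 and 3.33 CPM in ILC2, below MNK-3 replicate 1 (25.8 and 16.5 CPM). Klrg1 was higher in NK (89.7 CPM) than in ILC2 (20.8 CPM). The ILC3 marker Ltb4r1 was highest in ILC2 (60.55 CPM), and Il17a was at 1.13 CPM or below in every library. Markers of T cells summed to 191 and 65.0 CPM in MNK-3, 15.6 CPM in ILC2 and 138 CPM in NK, and B cell markers to between 67.2 and 172 CPM in the 4 libraries. Myeloid markers summed to 49.1 and 2.37 CPM in MNK-3, 13.4 CPM in ILC2 and 243 CPM in NK, of which 233 CPM in NK was Itgam, a gene that NK cells are known to express. The part of other cells in the levels below was not tested.

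**Figure D1:**
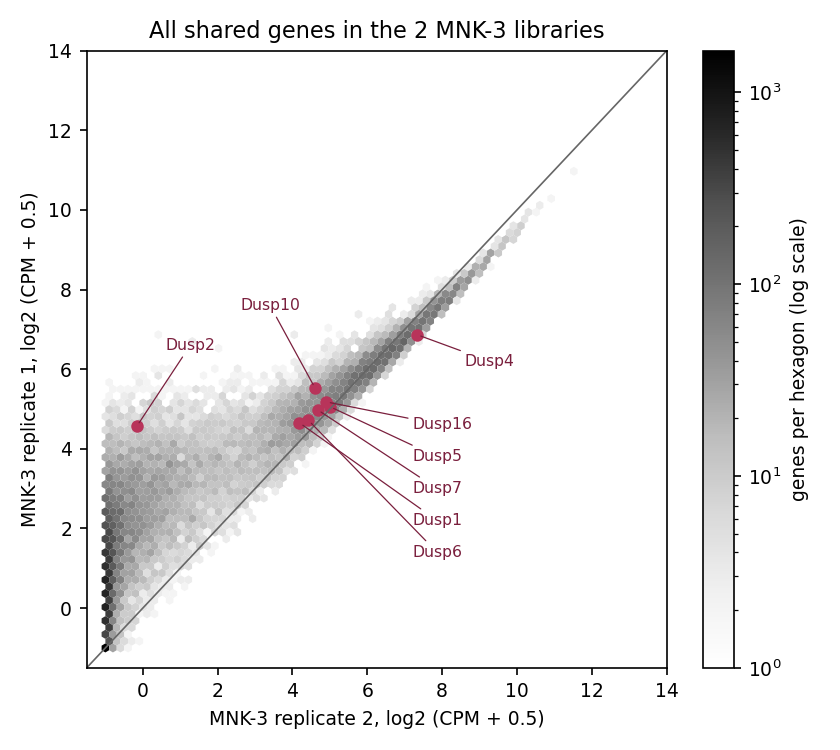
Every shared gene in the MNK-3 libraries, with replicate 2 on the x axis and replicate 1 on the y axis, both as log2 of CPM plus 0.5, the shade giving the number of genes on a log scale and the line marking equal levels. Dusp2 is at 0.395 CPM in replicate 2 and 23.2 CPM in replicate 1, at the upper edge of the genes that are low in replicate 2. It lies above 98.4% of the 17913 genes under 1 CPM there. Dusp4 lies along the main band below the line, at 160 CPM in replicate 2 and 116 CPM in replicate 1.

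Promoter sequences are shown for Dusp1, Dusp2 and Dusp5, the 3 members whose level in NK was far above every other library. Each is the 250 bases before the RefSeq start of the gene on GRCm38.p6, read along the gene's own strand: chr17:26508473-26508722 on the minus strand for Dusp1, chr2:127335909-127336158 on the plus strand for Dusp2 and chr19:53528895-53529144 on the plus strand for Dusp5. Capitals mark matches on either strand to a cyclic AMP response element (TGACGTCA), its core (TGACG, which lies within the full element on both strands), an E-box (CACGTG) or a CArG box, the site bound by serum response factor.

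Dusp1: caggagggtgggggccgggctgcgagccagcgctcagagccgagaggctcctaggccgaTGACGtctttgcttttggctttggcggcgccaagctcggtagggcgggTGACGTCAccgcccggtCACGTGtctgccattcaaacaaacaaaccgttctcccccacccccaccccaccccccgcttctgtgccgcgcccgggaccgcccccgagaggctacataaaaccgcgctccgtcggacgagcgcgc

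Dusp2: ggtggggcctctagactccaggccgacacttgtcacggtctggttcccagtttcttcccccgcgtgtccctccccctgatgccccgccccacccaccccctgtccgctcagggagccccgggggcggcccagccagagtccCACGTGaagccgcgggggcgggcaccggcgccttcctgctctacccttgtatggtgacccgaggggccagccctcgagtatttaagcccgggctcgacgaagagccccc

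Dusp5: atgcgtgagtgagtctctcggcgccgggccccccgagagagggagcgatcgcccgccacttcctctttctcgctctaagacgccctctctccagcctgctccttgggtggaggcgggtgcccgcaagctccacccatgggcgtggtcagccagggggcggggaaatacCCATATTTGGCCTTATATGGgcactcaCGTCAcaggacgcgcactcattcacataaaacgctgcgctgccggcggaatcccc

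The Dusp1 promoter held a full cyclic AMP response element 143 to 136 bases before the start, an element found in 1.55% of 32851 promoter windows of the same length. A further core lay 191 to 187 bases before the start, and an E-box 126 to 121 bases before it. In the Dusp2 promoter an E-box lay 109 to 104 bases before the start, and 6.02% of all windows held an E-box. The Dusp5 promoter held a tandem pair of CArG boxes, 82 to 73 and 72 to 63 bases before the start, and 1.47% of all windows held a CArG box. It also held the core of the response element on the opposite strand, 55 to 51 bases before the start. The core was found in 17.8% of all windows, and outside Dusp1 and Dusp5 it was found in 1 other member, Dusp16, at 70 to 66 bases before the start. Of the other motifs searched, AP-1 (TGANTCA, in 6.75% of all windows), the NR4A site (AAAGGTCA, 1.34%) and the TATA box (TATAAA, 12.4%) had no match in the 7 members with a RefSeq window, and Dusp6, Dusp7 and Dusp10 held no match to any motif searched. These matches describe the letters of the windows and say nothing of binding. Dusp4 was not among the windows.

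Among the nuclear members, Dusp1 (ENSMUSG00000024190), whose product acts on p38, JNK and ERK, had 24.7 and 17.7 CPM in MNK-3, 19.9 CPM in ILC2 and 186 CPM in NK. NK stood alone, and the ILC2 level lay between the MNK-3 libraries, its interval of 17.1 to 23.0 CPM overlapping both of theirs. By ratio, replicate 1 was at 1.24-fold of ILC2 (1.05 to 1.47) and replicate 2 at 0.891-fold (0.736 to 1.08). The NK level was 7.53-fold and 10.47-fold above the MNK-3 replicates (intervals 6.78 to 8.35 and 9.12 to 12.1) and 9.33-fold above ILC2 (7.95 to 11.0). In GENCODE M21 the gene spans chr17:26505590-26562128, with 4 exons in its representative transcript and a product of 367 codons. Its annotated exons overlap those of Ergic1 on the opposite strand, a gene with 2011 and 1188 reads in MNK-3, 988 in ILC2 and 116 in NK. The strand setting of the counting is not given in the sources used here, so some reads of the 2 genes may not be told apart. In NK, Dusp1 had 861 reads beside those 116 of Ergic1.

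Dusp2 (ENSMUSG00000027368; chr2:127336159-127338376), a phosphatase gene known for its expression in blood cells, had 23.2 and 0.395 CPM in MNK-3, 4.19 CPM in ILC2 and 350 CPM in NK. NK was again the high library, and the MNK-3 libraries fell on either side of ILC2. The NK level was 83.5-fold above ILC2 (60.8 to 118), where 39 reads were counted. It was 15.1-fold above MNK-3 replicate 1 (13.7 to 16.6) and 886-fold above MNK-3 replicate 2 (406 to 2419), where 6 reads were counted. The replicates thus differed by 58.8-fold (26.8 to 161), a larger ratio than that of 98.7% of the genes compared. Dusp2 at 23.2 CPM in replicate 1 was also above 98.4% of the 17913 genes that were under 1 CPM in replicate 2, and the part that the raised low end of replicate 1 has in it was not tested. The level of Dusp2 in MNK-3 is therefore given per library.

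Dusp5 (ENSMUSG00000034765; chr19:53529109-53542431), a nuclear phosphatase that acts on ERK, had 32.9 and 31.5 CPM in MNK-3, 8.39 CPM in ILC2 and 228 CPM in NK. It separated all 3 groups, with NK highest, MNK-3 between and ILC2 lowest. MNK-3 was 3.92-fold and 3.75-fold above ILC2 (3.10 to 5.01 and 2.95 to 4.83), and NK was 6.94-fold and 7.24-fold above MNK-3. Of the 8 genes it was the one on which the MNK-3 libraries lay closest, with a ratio of 1.04 (0.932 to 1.17). An annotated antisense gene overlaps its first bases and was not among the genes used here.

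Dusp4 (ENSMUSG00000031530; chr8:34807297-34819894), a nuclear phosphatase of the same inducible class, ran the other way. It had 116 and 160 CPM in MNK-3, 12.9 CPM in ILC2 and 6.04 CPM in NK. Both MNK-3 libraries lay above ILC2, and ILC2 lay above NK with intervals of 10.7 to 15.4 and 4.01 to 8.73 CPM. MNK-3 was 19.3-fold and 26.5-fold above NK (13.3 to 29.1 and 18.3 to 40.0) and 9.02-fold and 12.4-fold above ILC2 (7.52 to 10.9 and 10.3 to 15.01). Dusp4 was lower in replicate 1 than in replicate 2, with a ratio of 0.728 and a log2 ratio of -0.46, beside a median of -0.29 for the 2875 genes at 100 CPM or more in replicate 2.

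**Figure D2:**
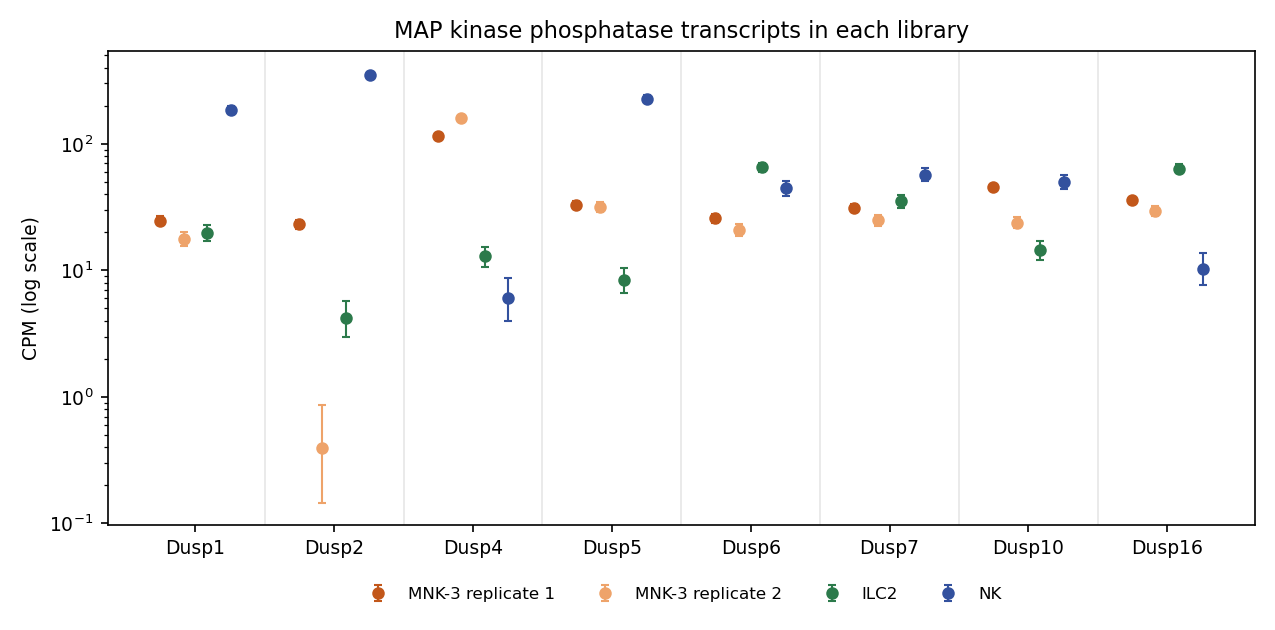
Level of each gene in CPM on a log scale, by gene and library, with bars for the exact Poisson 95% interval. NK is far above the other libraries for Dusp1 (186 CPM), Dusp2 (350 CPM) and Dusp5 (228 CPM). It is highest by less for Dusp7 (57.1 CPM) and Dusp10 (50.2 CPM), and the MNK-3 libraries are the highest for Dusp4 (116 and 160 CPM).

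The cytoplasmic ERK phosphatases spanned a narrower range. Dusp6 (ENSMUSG00000019960; chr10:99263231-99267489), a feedback inhibitor of ERK in many tissues, had 25.8 and 21.02 CPM in MNK-3, 65.4 CPM in ILC2 and 44.6 CPM in NK. ILC2 was highest and the MNK-3 libraries lowest, with no overlap between groups. The ILC2 level was 1.47-fold that of NK (1.25 to 1.72), and the MNK-3 levels were 0.395-fold and 0.321-fold that of ILC2.

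Dusp7 (ENSMUSG00000053716; chr9:106368632-106375724) had 31.1 and 24.97 CPM in MNK-3, 35.1 CPM in ILC2 and 57.1 CPM in NK. NK was highest, and ILC2 was above both MNK-3 libraries, although its interval of 31.4 to 39.1 CPM overlapped that of replicate 1 (29.0 to 33.3 CPM). The whole range over the libraries was small, MNK-3 being 0.545-fold and 0.437-fold of NK.

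Of the enzymes that act on JNK and p38, Dusp10 (ENSMUSG00000039384; chr1:184013302-184075636) had 45.5 and 23.9 CPM in MNK-3, 14.5 CPM in ILC2 and 50.2 CPM in NK. ILC2 was lowest, at 0.289-fold of NK (0.232 to 0.359). Replicate 1 of MNK-3 could not be distinguished from NK by counting error (0.906-fold, 0.786 to 1.05), whereas replicate 2 was at 0.475-fold (0.402 to 0.562). The annotated span of Dusp10 also holds 1700056E22Rik on the opposite strand, without shared exonic bases.

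Dusp16 (ENSMUSG00000030203; chr6:134715468-134792625), a JNK phosphatase, had 35.8 and 29.5 CPM in MNK-3, 63.8 CPM in ILC2 and 10.4 CPM in NK. ILC2 was highest, MNK-3 between and NK lowest, without overlap. ILC2 was 6.16-fold above NK (4.59 to 8.45), and MNK-3 was 3.46-fold and 2.85-fold above NK. The 2 members that act on JNK and p38 were thus placed in opposite order in ILC2 and NK.

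A gene was counted by size when it differed by 4-fold or more on the log2 of CPM plus 0.5 in every library pair of 2 groups, the same way, with at least 10 CPM in every library of the higher group. For MNK-3 over NK, 4 of the 8 members met this rule, Dusp4 above and Dusp1, Dusp2 and Dusp5 below, where the rule called 15.1% of the 10144 genes that could have met it (11.3% higher and 3.76% lower). For MNK-3 over ILC2 only Dusp4 of the 8 members met it, where 9.7% of 10022 genes did (6.65% higher, 3.05% lower). With median-of-ratios factors no member met it in that comparison, and 317 genes were higher and 615 lower, against 666 and 306 with library totals. Without MNK-3 replicate 2, Dusp2 also met the rule over ILC2, and in that replicate it was on the other side, at a log2 ratio of -2.39. For ILC2 over NK, 4 of the 8 members met it, Dusp16 above and Dusp1, Dusp2 and Dusp5 below, where 16.8% of 9795 genes did (9.78% higher, 7.03% lower). Because these same levels led to the choice of the 8 genes, nothing is read from their share against these percentages or against those that follow. The MNK-3 libraries lay on 1 side of NK for all 8 members, 2 above and 6 below, where 72.7% of the 13151 genes at 10 CPM or more in some library had both on 1 side (51.2% above and 21.5% below). Against ILC2 they lay above for 3 members and below for 3, where 76.2% of genes had both on 1 side (54.3% above and 21.9% below), and they lay on either side for Dusp1 and Dusp2.

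The comparisons share libraries and are given side by side for each group of members. For MNK-3 over NK the log2 ratios of the group means were -3.10 for Dusp1, 4.41 for Dusp4, -2.81 for Dusp5, -0.92 for Dusp6, -1.01 for Dusp7, -0.53 for Dusp10 and 1.61 for Dusp16, and those of Dusp2 were -3.89 and -8.61 in the replicates. For MNK-3 over ILC2 they were 0.09 for Dusp1, 3.37 for Dusp4, 1.88 for Dusp5, -1.46 for Dusp6, -0.32 for Dusp7, 1.23 for Dusp10 and -0.96 for Dusp16, and those of Dusp2 were 2.34 and -2.39 in the replicates. For ILC2 over NK the log2 ratios were -3.19 for Dusp1, -6.22 for Dusp2, 1.04 for Dusp4, -4.68 for Dusp5, 0.55 for Dusp6, -0.70 for Dusp7, -1.76 for Dusp10 and 2.57 for Dusp16. The median over the 8 members was -0.97, 0.66 and -1.23 in the 3 comparisons, beside 0.66, 0.88 and -0.09 over all shared genes. Without MNK-3 replicate 1 it was -1.12 over NK and -0.32 over ILC2, and without replicate 2 -0.82 and 0.96. The all-gene median was 0.0 in both comparisons without replicate 1, and 1.11 and 1.30 without replicate 2. With median-of-ratios factors the members' median for MNK-3 over ILC2 was -0.22. Measured from the median of all genes, Dusp4 stood 3.74 and Dusp16 0.95 above it for MNK-3 over NK, and these were 4.62 and 1.47 without replicate 1 and 3.05 and 0.63 without replicate 2. Of the others, Dusp1, Dusp5, Dusp6, Dusp7 and Dusp10 stood between -1.19 (Dusp10) and -3.77 (Dusp1) from it, and Dusp2 stood at -4.99 in replicate 1 and -8.61 in replicate 2. For MNK-3 over ILC2, Dusp4 stood 2.50 and Dusp5 1.003 above it, Dusp10 0.35, and Dusp6 and Dusp16 at -2.34 and -1.83. Those of Dusp4 and Dusp5 were 3.58 and 1.85 without replicate 1 and 1.82 and 0.60 without replicate 2, that of Dusp10 was 0.70 and 0.31, that of Dusp6 -1.61 and -2.63, and that of Dusp16 -1.10 and -2.13. In that comparison Dusp1 stood at -0.79 from the all-gene median, so its sign depended on the scaling, and its plain log2 ratio turned to -0.34 with trimmed-mean factors and -0.61 with median-of-ratios factors.

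**Figure D3:**
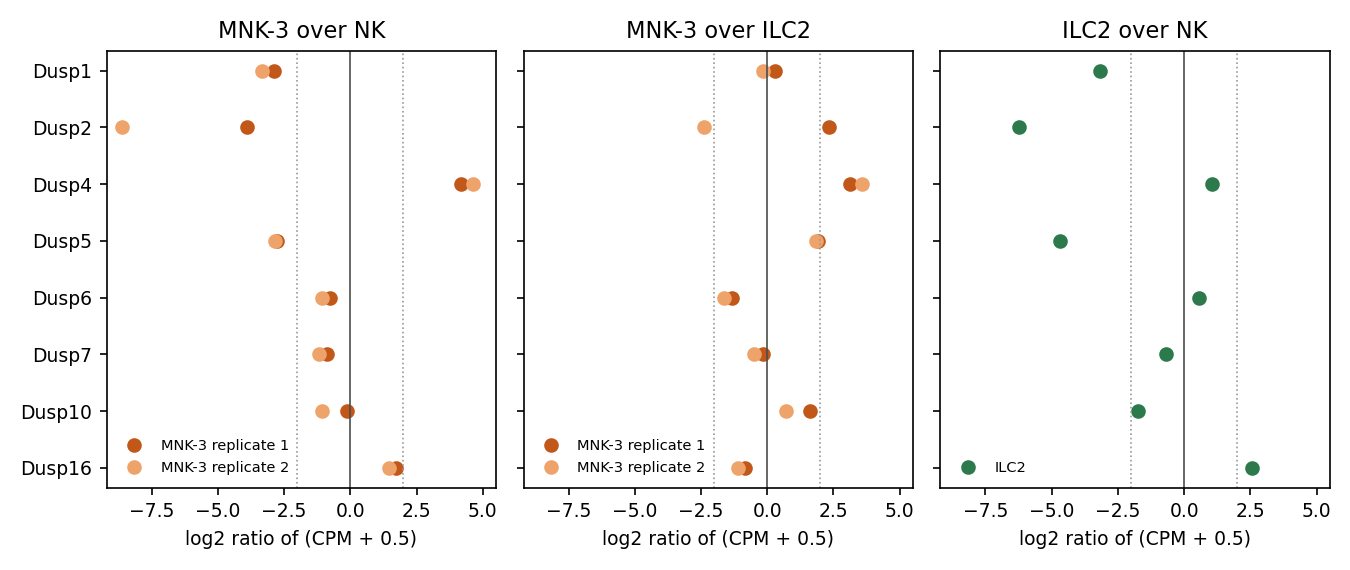
Log2 ratio of CPM plus 0.5 for each gene (y axis) in every library pair, for MNK-3 over NK, MNK-3 over ILC2 and ILC2 over NK, with dotted lines at the 4-fold bounds. Dusp1, Dusp2 and Dusp5 lie left of the bounds against NK in both outer panels, Dusp4 lies right of them in both MNK-3 panels, and the Dusp2 points of the MNK-3 libraries lie on opposite sides of 0 against ILC2.

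To set the 8 genes against each other, CPM was divided by the length of the representative transcript in kilobases. The summed CPM of the 8 was 335 and 309 in MNK-3, 224 in ILC2 and 933 in NK. On the scale per kilobase, Dusp4 made up 34.1% and 53.1% of the sum of the 8 in MNK-3, 6.48% in ILC2 and 0.481% in NK. Dusp2 made up 11.5% and 0.223% in MNK-3, 3.57% in ILC2 and 47.3% in NK. Dusp6 was the leading gene of ILC2 with 32.2%, against 7.40% and 6.84% in MNK-3 and 3.48% in NK. Each group thus had another leading member: Dusp4 in MNK-3, Dusp6 in ILC2 and Dusp2 in NK, and the same 3 led when all annotated exons were used as the length. Within MNK-3 replicate 2, Dusp5 came second at 12.7 CPM per kb and Dusp2 last at 0.244, whereas in replicate 1 Dusp10 came second at 16.3 and Dusp16 last at 7.01. In ILC2, Dusp16 and Dusp7 followed Dusp6, at 12.5 and 10.9 CPM per kb beside 23.4, and Dusp2 was last at 2.59. In NK, Dusp4 and Dusp16 were the lowest, at 2.203 and 2.03 CPM per kb beside 217 for Dusp2. Set against all shared genes by CPM, Dusp2 was above 98.4% of them in NK, above 70.1% and 50.2% in the MNK-3 replicates and above 65.7% in ILC2. Dusp4 was above 93.0% and 94.7% of genes in MNK-3, above 72.9% in ILC2 and above 67.1% in NK. Dusp6 and Dusp7 lay between 71.6% and 88.2% in every library. Lower ranks did change with the length: in NK, Dusp1 and Dusp5 lay side by side at 93.3 and 92.2 CPM per kb and changed places.

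By class, the 4 nuclear members took 66.2% and 73.1% of the summed CPM per kb in MNK-3, 28.5% in ILC2 and 88.3% in NK. The cytoplasmic ERK phosphatases took 15.2% and 13.9% in MNK-3, 47.2% in ILC2 and 7.37% in NK. Dusp10 and Dusp16 together took 18.7% and 13.0% in MNK-3, 24.3% in ILC2 and 4.37% in NK. In CPM per kb, the nuclear class had 82.5 and 80.2 in MNK-3, 20.7 in ILC2 and 404 in NK, and the cytoplasmic class had 18.9 and 15.3 in MNK-3, 34.3 in ILC2 and 33.7 in NK.

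**Figure D4:**
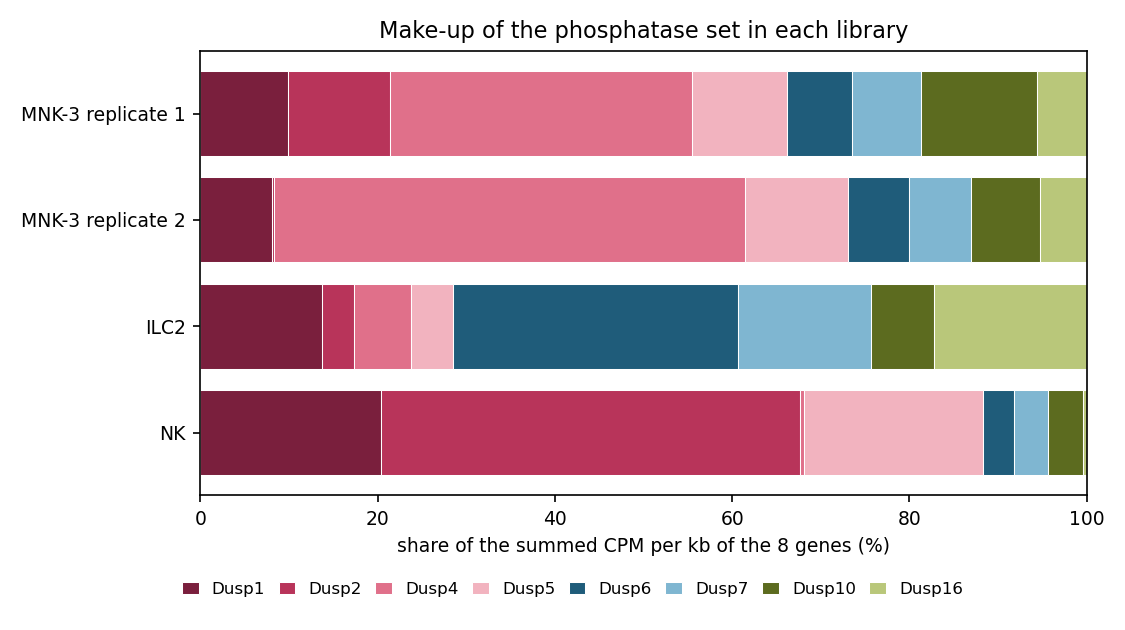
Share of the summed CPM per kilobase of the 8 genes taken by each gene, in percent, with 1 bar per library. The bar of NK is mostly Dusp1, Dusp2 and Dusp5, Dusp4 is the widest segment of both MNK-3 bars, and Dusp6 is the widest segment of the ILC2 bar.

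Gene structure and the 3′ ends were read from GENCODE M21. Dusp1, Dusp2, Dusp4, Dusp5 and Dusp10 have 4 exons each in the representative transcript, Dusp6 and Dusp7 have 3 and Dusp16 has 7, where the median of 20558 coding genes is 7. Dusp2 is compact, with a span of 2218 bp, and Dusp6 spans 4259 bp, beside a median of 18273 bp. The pentamer ATTTA is the core of AU-rich elements, which mark many short-lived transcripts. The 3′ UTR of Dusp1 holds 4 of them in 690 nt and that of Dusp2 holds 4 in 581 nt, densities above those of 94.4% and 96.3% of coding genes. Dusp10 and Dusp16 hold 3 each, Dusp4 holds 2, Dusp5 and Dusp6 hold 1 each and Dusp7 holds none. Dusp1 also holds 2 copies of the nonamer TTATTTATT, which 6.92% of coding genes have, and no other member has it. Dusp5, which shared the high level in NK, has 0.902 ATTTA per kb, below the median of 1.12.

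Genes with the most similar pattern over the 4 libraries were sought among 13151 genes that reached 10 CPM in at least 1 library, by the root mean square difference of log2 of CPM plus 0.5 after centring each gene. This is a description over 4 libraries only. Nearest to Dusp1 was Tsc22d3, a glucocorticoid-induced gene, at 0.0875, with 40.4 and 29.1 CPM in MNK-3, 33.2 CPM in ILC2 and 264 CPM in NK. Nearest to Dusp5 was Irf8, an interferon regulatory factor, at 0.211, with 52.0 and 60.8 CPM in MNK-3, 15.5 CPM in ILC2 and 538 CPM in NK. Dusp4 lay closest to S100a4 (0.111), Bbs7 (0.113) and Mitf (0.126). For Dusp2 the nearest gene, Cd247, the zeta chain through which NK receptors signal, was farther away at 0.499, and it too differed between the MNK-3 libraries, at 32.9 and 0.461 CPM, with 2.15 CPM in ILC2 and 265 CPM in NK. The nearest genes to Dusp6, Dusp7, Dusp10 and Dusp16 were Mrps30, Fam208b, Znrf3 and Phlda3, at 0.0236 to 0.0397. Among the 8 themselves, Dusp6 and Dusp7 were the closest pair (0.511), Dusp7 and Dusp10 came next (0.643) and Dusp1 and Dusp5 after them (0.762), and Dusp2 and Dusp4 were the farthest apart (4.72).

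The rest of the pathway was described from gene lists, by the size rule and by limma voom, a test fitted over 25283 genes in 1 model of all 4 libraries with a two-sided Benjamini-Hochberg adjusted p under 0.05. Since the pair of MNK-3 libraries supplies the only replicate, p-values measure the spread of that pair pooled over genes, which may be technical. The pooled spread can be smaller than a gene's own: Ptprc, which encodes the phosphatase CD45, had a fitted SE of 0.24 although its MNK-3 libraries lay 1.503 apart on the log2 scale. The limma calls also depended on scaling. Over all genes 2.33% were called for MNK-3 over NK (0.289% higher, 2.04% lower), 3.27% for MNK-3 over ILC2 (0.902% higher, 2.37% lower) and 1.3% for ILC2 over NK (0.479% higher, 0.819% lower). No gene was called for ILC2 over NK with trimmed-mean or median-of-ratios factors, where 544 and 408 genes had an unadjusted p under 0.05.

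The 18 other dual-specificity phosphatases, most of which lack the domain that binds MAP kinases, were compared in the same way. None met the size rule in either MNK-3 comparison. With library totals, only Dusp11, Styx and Dusp22 reached 10 CPM in NK or in both MNK-3 libraries. The others could thus not have met the rule for MNK-3 over NK. ILC2 also had Dusp3, Dusp19 and Dusp23 at 10 CPM, so these could have met it where ILC2 was compared. Limma called none of the 17 tested in any comparison. The unadjusted p was under 0.05 for 2 of them for MNK-3 over ILC2 and for 0 in the other comparisons. Over NK, ILC2 had 1 that met the rule, Dusp3, a small phosphatase that acts on ERK and JNK, with 40.1 CPM in ILC2 and 9.06 CPM in NK, beside 13.98 and 8.30 CPM in MNK-3. Without MNK-3 replicate 1, and with either other scaling, 2 of the 18 were lower by the rule for MNK-3 over ILC2. Another list held 10 phosphatases of other families, not all of which are MAP kinase phosphatases, CD45 being 1 that is not. Its gene Ptprc alone met the rule, with 163 and 57.3 CPM in MNK-3, 642 CPM in ILC2 and 4248 CPM in NK.

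None of 14 MAP kinases and none of 7 MAP kinase kinases, the substrates of these phosphatases and the enzymes that activate them, met the size rule in any comparison. With library totals, Mapk4, Mapk10, Mapk11, Mapk12, Mapk13 and Mapk15 lay below its minimum of 10 CPM in at least 1 library of every group. They could thus not have met it. The p38 gene Mapk14, named after its values had been seen, had 179 and 223 CPM in MNK-3, 67.9 CPM in ILC2 and 125 CPM in NK, and was the only MAP kinase called by limma, higher for MNK-3 over ILC2 with library totals alone. Of 18 MAP kinase kinase kinases, Map3k1 was lower by the rule for MNK-3 over NK, with 87.0 and 96.3 CPM in MNK-3, 263 CPM in ILC2 and 412 CPM in NK, and with neither other scaling.

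Of other inhibitors of the ERK pathway, 15 were measured of 16 listed. Rasa3 and Rasa1, which encode GTPase-activating proteins for Ras, were lower by the rule for MNK-3 over NK, Rasa1 with library totals alone. Rasa3 had 85.6 and 110 CPM in MNK-3, 51.6 CPM in ILC2 and 701 CPM in NK, the group order of Dusp5, with a fitted log2 change of -2.89 (SE 0.30) for MNK-3 over NK and an adjusted p of limma voom of 1.41e-19, which was 0.806 with trimmed-mean factors. Spry2, a feedback inhibitor induced by growth factors, had 256 and 353 CPM in MNK-3, 2.26 CPM in ILC2 and 219 CPM in NK, past the rule for MNK-3 over ILC2 with an adjusted p of limma voom of 0.839. Of 14 genes known to report ERK output, 2 were higher by the rule for MNK-3 over NK, 1 and 0 with the other scalings, and 4 were higher and 2 lower for MNK-3 over ILC2. Egr3, an early growth response factor, had 70.3 and 98.7 CPM in MNK-3, 3.33 CPM in ILC2 and 11.2 CPM in NK, high in MNK-3 like Dusp4 but with ILC2 below NK, where Dusp4 had ILC2 above NK.

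The list of 22 immediate early and handling genes held genes that respond to signals or to cell handling. It also held others, such as Klf2, that are not immediate early genes. The 22 were in part ordered like Dusp1, Dusp2 and Dusp5, with the highest sum in NK. In part they were not, Nr4a1 and Nr4a3 being higher by the rule for MNK-3 over NK with library totals, and 1 gene with either other scaling. Their summed level was 2434 and 3251 CPM in MNK-3, 1500 CPM in ILC2 and 6273 CPM in NK. In the comparison of ILC2 over NK, 12 of the 22 were lower by the size rule and none higher, with a median log2 ratio of -2.65 beside -0.09 over all genes. Limma called 7 of them lower with library totals and none with trimmed-mean or median-of-ratios factors, where 10 and 7 had an unadjusted p under 0.05. For MNK-3 over NK 9 were lower and 2 higher by the rule, with a median of -1.80 beside 0.66. There limma called 13 lower and 3 higher with library totals, and 3 and 2 lower with trimmed-mean and median-of-ratios factors, Klf2 and Fos passing under each. Klf2, a transcription factor of resting lymphocytes, had 10.9 and 6.72 CPM in MNK-3, 3.87 CPM in ILC2 and 565 CPM in NK, and Fos had 10.8 and 7.84 CPM in MNK-3, 3.23 CPM in ILC2 and 250 CPM in NK.

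Nr4a3, an orphan nuclear receptor gene, had 512 and 756 CPM in MNK-3, 2.26 CPM in ILC2 and 110 CPM in NK, high in MNK-3 like Dusp4 but, unlike Dusp4, higher in NK than in ILC2. For MNK-3 over ILC2 5 of the 22 were higher by the rule and 1 lower, the median log2 ratio being 1.23 beside 0.88 over all genes, and limma called 2 higher and 3 lower with library totals alone. The part of handling and of culture in the levels of Dusp1, Dusp2 and Dusp5 was not tested.

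**Figure D5:**
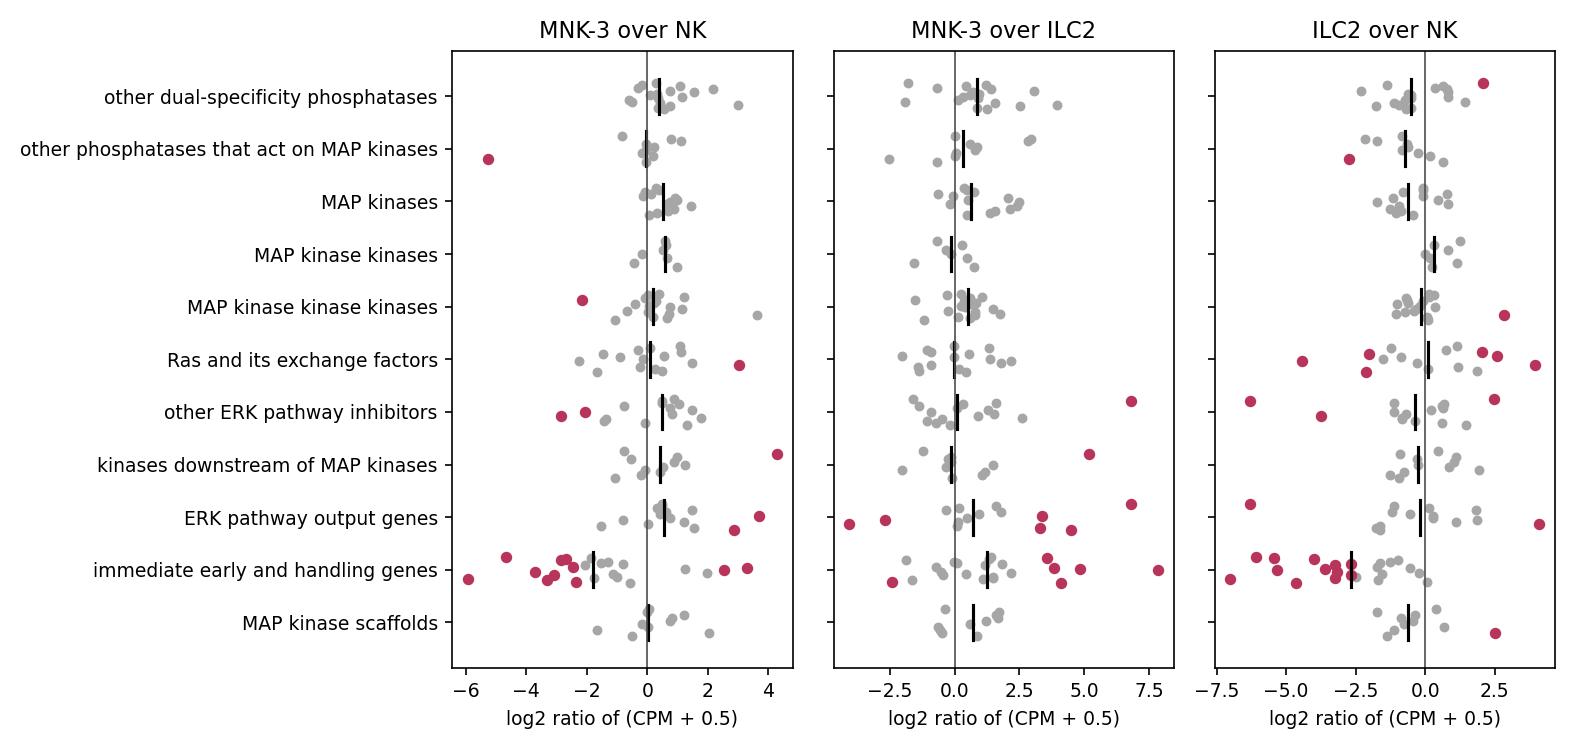
Log2 ratio of CPM plus 0.5 (group means) for the genes of each pathway list in the 3 comparisons, with black bars at list medians and coloured points for genes past the size rule. The immediate early and handling genes lie mostly left of 0 against NK, with medians of -1.80 for MNK-3 over NK and -2.65 for ILC2 over NK, whereas no MAP kinase or MAP kinase kinase is coloured.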

How the data were processed

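Libraries were made from total RNA with a stranded kit for small inputs and sequenced as paired 38-base reads, per the labels' protocols. The submitters' processing notes name STAR 2.7.8a, HTSeq and the build mm10/GRCm38, an aligner, a read counter and a mouse genome; the strand setting and gene set are not given in the sources used here. The deposited values are of a unit recorded as other: whole-number read counts per Ensembl gene, not normalized, made by the authors. The labels mention technical replicates, and whether runs were pooled is not given. NK and ILC2 were counted over 53465 genes and MNK-3 over 31053. The 30731 genes in all tables were used, and those left out held 0.0399% to 3.06% of gene reads. Entries that name no gene were left out.

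CPM was computed on totals of the shared genes, and log2 ratios after adding 0.5 CPM. The pair of MNK-3 libraries was further apart than sampling of reads gives (chi-square per degree of freedom 79.7), and both were kept. Limma voom (limma 3.58.1, R 4.3.3) was fitted to 4 libraries in 3 groups with 1 residual degree of freedom, for genes with a scaled count of 10 and a total of 15. The prior degrees of freedom were infinite in every fit, so a gene's own spread had no weight in its p-value. A run on simulated counts gave every gene the same spread, unlike the MNK-3 pair, and nothing is read from it. Two-sided p-values were adjusted by Benjamini-Hochberg over all genes tested. Gene models came from GENCODE M21, promoters from RefSeq on GRCm38.p6 (7 of the 8 members matched). Python 3.11.15, numpy 2.4.6, pandas 2.3.3 and scipy 1.17.1 were used.

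The members and the lists were chosen with earlier results of these data known. All 8 members are named. From each pathway list up to 3 genes past the size rule per comparison were named, by absolute log2 ratio. Mapk14 and Nr4a1 were chosen after their values were seen. Further list genes were named only for whether they could reach the minimum level of the rule. Alternatives were trimmed-mean and median-of-ratios scaling (own code), totals over all genes of each table, 0.1 and 1 CPM added, no minimum level, no filter, fits of 3 libraries and leaving out each MNK-3 library.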

Additional observations from a re-analysis of the deposited data

How the results depend on the processing

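No paired analysis was possible because only MNK-3 has more than 1 library, so the groups share fewer than 2 replicate numbers. Limma without an MNK-3 library leaves no residual degree of freedom and was not fitted. Genes called by limma, 590 for MNK-3 over NK, 828 for MNK-3 over ILC2 and 328 for ILC2 over NK, came to 124, 75 and 0 with trimmed-mean factors and 96, 52 and 0 with median-of-ratios factors. For ILC2 over NK the unadjusted p was then under 0.05 for 544 and 408 genes. With no filter on low counts 389 genes were called for MNK-3 over NK and 183 for ILC2 over NK. The cause was not tested. By the size rule, leaving out each MNK-3 library gave 2140 to 3654 genes for MNK-3 over NK, against 1532, and 1481 to 3659 for MNK-3 over ILC2, against 972; the higher counts are those without replicate 2, and fewer library pairs had to agree.

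The size rule split 1151 higher and 381 lower for MNK-3 over NK, and 657 and 529 with median-of-ratios factors. For MNK-3 over ILC2 it split 666 and 306, and then 462 and 475 with trimmed-mean factors and 317 and 615 with median-of-ratios factors. For ILC2 over NK it split 958 and 689, and 1268 and 537 with trimmed-mean factors. The median of all genes for MNK-3 over NK was 0.66, 0.48 and 0.27 under library totals, trimmed-mean and median-of-ratios factors, and 0.88, 0.56 and 0.36 for MNK-3 over ILC2.

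Members past the size rule stayed at 4 for MNK-3 over NK and 4 for ILC2 over NK under every alternative run. For MNK-3 over ILC2 the count of 1 was 0 with median-of-ratios factors, where Dusp4 had a log2 ratio of 2.86, and 1 to 2 when each MNK-3 library was left out. Of 152 recomputed member ratios, 32 moved by more than the spread used; Dusp2 for MNK-3 over ILC2, 1.39 from both libraries, was -2.39 without replicate 1. In NK, a level under 0.647 CPM, 3 reads, could not be told from 0.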

Other observations

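Ras and its exchange factors feed the kinases that these phosphatases act on. Of 15 listed, with no filter on level, 3 were higher and 3 lower for ILC2 over NK by the size rule with library totals. The rule called 9.78% higher and 7.03% lower of the 9795 genes that could have met it. With either other scaling, 4 of the 15 were higher and 1 lower. Rasgrp2, an exchange factor mainly for Rap, had 55.8 and 6.65 CPM in MNK-3, 6.45 CPM in ILC2 and 150 CPM in NK. Rasgrp4, an exchange factor for Ras, had 39.4 and 27.7 CPM in MNK-3, 63.7 CPM in ILC2 and 3.67 CPM in NK, and Sos1 had 124 and 137 CPM in MNK-3, 541 CPM in ILC2 and 89.7 CPM in NK. For ILC2 over NK, limma voom called Sos1 higher, with a log2 change of 2.59 (SE 0.55) and an adjusted p of 0.000557, which was 1.00 with either other scaling.

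Of 11 kinases activated by MAP kinases, Rps6ka2 alone met the size rule, with 61.2 and 74.98 CPM in MNK-3, 1.398 CPM in ILC2 and 3.02 CPM in NK. It was high in MNK-3 like Dusp4. ILC2 and NK held 13 and 14 reads of it, so few that nothing is read from their order. Of 10 scaffolds, Arrb1, a beta-arrestin gene, met it, with 260 and 290 CPM in MNK-3, 388 CPM in ILC2 and 66.8 CPM in NK.

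Further genes of the pathway lists were among the 3 with the greatest differences past the size rule. Epha4, an ephrin receptor gene, had 12.1 and 10.8 CPM in MNK-3, 0.645 CPM in ILC2 and 0.431 CPM in NK, high in MNK-3 like Dusp4. For MNK-3 over NK it met the rule with library totals and with neither other scaling. Its level in NK rested on 2 reads. Map3k20, a stress-activated kinase gene, had 63.4 and 0.593 CPM in MNK-3, 18.5 CPM in ILC2 and 2.16 CPM in NK. Its MNK-3 libraries lay on either side of ILC2, as those of Dusp2 did. Ier3 had 3.67 and 0.329 CPM in MNK-3, 41.5 CPM in ILC2 and 1.94 CPM in NK, and Spry1, a relative of Spry2, had 6.68 and 6.19 CPM in MNK-3, 20.4 CPM in ILC2 and 3.23 CPM in NK. Both were highest in ILC2, as Dusp6 and Dusp16 were. Zfp36, which encodes a protein that binds AU-rich elements, had 25.1 and 24.3 CPM in MNK-3, 36.03 CPM in ILC2 and 331 CPM in NK. Fosb had 55.8 and 55.2 CPM in MNK-3, 4.19 CPM in ILC2 and 203 CPM in NK, the group order of Dusp5. Rgs2 had 74.2 and 81.4 CPM in MNK-3, 4.09 CPM in ILC2 and 115 CPM in NK, and Nr4a2 had 162 and 239.8 CPM in MNK-3, 6.56 CPM in ILC2 and 84.3 CPM in NK.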
